A study of Mus musculus with 6 samples.

Results

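This report describes 10 target genes of the hypoxia-inducible factors (HIF) that lie outside glycolysis, namely Egln1, Egln3, Bnip3, Bnip3l, Pdk1, Vegfa, Adm, Ddit4, Ndrg1 and Ankrd37. They were taken as a list of gene names, matched to Ensembl gene IDs through GENCODE vM39, and all 10 were found among the 47643 gene IDs of the data and among the 15792 genes that passed the filter on low counts. The names were chosen by hand from known HIF targets after the log2 fold changes between day 7 and day 5 of these libraries had been seen, so each gene's difference between the days is given here as a description, without a test.

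The samples were organoids of the mouse submandibular salivary gland (mSGOs), small epithelial structures that grow in Matrigel from dissociated cells of the adult gland. Untreated, non-irradiated organoids of C57BL/6 mice aged 8 to 12 weeks were collected on day 5 or day 7 of culture. There were 3 mice per day and 1 library per mouse and day. By their titles, libraries of both days with the same number came from the same mouse. Both days shared the same WRY medium, made with EGF, FGF2, insulin, the glucocorticoid dexamethasone, Y27632 and medium conditioned by cells that secrete Wnt3a or R-spondin1, and the oxygen tension of the cultures is not given in the sources used here. QuantSeq libraries read the 3′ end of polyadenylated transcripts, so that a transcript gives a read at its end and counts are not divided by gene length. Levels are given as CPM, counts per 1000000 counts, on library sizes scaled by TMM.

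HIF is a pair of proteins, an oxygen-regulated alpha subunit (HIF1A or EPAS1) and its constant partner ARNT. While oxygen is plentiful, prolyl hydroxylases of the EGLN family modify the alpha subunit, VHL recognises the modified protein and it is degraded. When oxygen falls, the alpha subunit persists, binds DNA with ARNT at the short sequences ACGTG or GCGTG and raises genes for glycolysis, removal of mitochondria, blood vessel growth and the hydroxylases themselves. These genes can also answer to other signals, such as growth factors, energy stress and glucocorticoids.

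The sequence ACGTG or GCGTG, the core to which HIF binds, was searched on both strands of the RefSeq promoter windows, which run from 250 bases before to 50 bases after a gene's start. The windows come from RefSeq on GRCm38.p6, and positions in GRCm39 were found by an exact match of each whole window. Of the 10 genes, 8 had a window, and Bnip3l and Ndrg1 had none. ACGTG was found in 6 of these 8 genes and in 21.8% of the 27025 genes with a window. GCGTG was found in 7 of 8 genes and in 35.2% of all genes, and either sequence in 8 of 8 and 46.7%. Such a match describes the letters only and does not show binding. The matches shown here are those of ACGTG for the 5 genes that hold it within the window nearest to their start, and of GCGTG for Adm and Pdk1, which hold no ACGTG. A further GCGTG of Pdk1 begins 2 bases before the RefSeq start, runs across it and is not printed. Another Pdk1 window (chr2:71704998-71705297) held neither core. They are written 5′ to 3′ on the strand of the gene with the core in capitals. CACGC is GCGTG read on the other strand, and the distance given is that of the first capital from the RefSeq start. The Bnip3 core CACGTG is its own reverse complement, so ACGTG lies there on both strands.
Bnip3 (107 bases before the start, chr7:138511326-138511354, minus strand, upstream of the annotated gene): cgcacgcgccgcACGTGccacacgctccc
Egln3 (229 bases before the start, chr12:54250873-54250901, minus strand, upstream of the annotated gene): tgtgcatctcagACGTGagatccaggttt
Egln1 (68 bases before the start, chr8:125676045-125676073, minus strand, within an annotated Egln1 exon in the UTR): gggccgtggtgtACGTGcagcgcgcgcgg
Ddit4 (187 bases before the start, chr10:59787763-59787791, minus strand, within an annotated Ddit4 exon in the UTR): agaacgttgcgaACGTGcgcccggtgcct
Ankrd37 (6 bases before the start, chr8:46452888-46452905, minus strand, within an annotated Ankrd37 exon): cagtgtttgggtACGTGa
Ankrd37 (241 bases before the start, chr8:46453112-46453137, minus strand, intronic to a longer Ankrd37 transcript and to Lrp2bp on the other strand): cccagcagtACGTGcctagctcggct
Adm (54 bases before the start, chr7:110226798-110226826, plus strand, upstream of the gene, in an exon of Gm72687 on the other strand): ggcaaatctgacCACGCccaccgtccgcc
Adm (90 bases before the start, chr7:110226762-110226790, plus strand, upstream of the gene, in exons of Gm28863 and Gm72687 on the other strand): tttagaagcaagCACGCtggagagggagg
Pdk1 (78 bases before the start, chr2:71703478-71703506, plus strand, across the annotated start of the gene): ccgcctacatggGCGTGtctttaaccagg
The exonic positions arise because GENCODE vM39 begins some transcripts of Egln1, Ddit4, Ankrd37 and Pdk1 further upstream than the RefSeq start does. Vegfa had 2 windows, and both cores lay only in the window of an internal start (chr17:46336040-46336339) and not in the window at the 5′ end of the gene. Ddit4, with the smallest difference between the days, and Bnip3, with one of the largest, both held ACGTG.

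Counts in genes ranged from 1918198 to 2652710 per day 5 library and from 2154261 to 2837397 per day 7 library, and 3 counts, the limit that a count of 0 allows, corresponded to 1.04 to 1.51 CPM. Reads in no gene made up between 13.7% and 14.4% of a day 5 library and between 9.12% and 9.74% of a day 7 library. The 8 epithelial markers were detected in each library, led by the basal keratins Krt14 (4114 to 9222 CPM) and Krt5 (3373 to 6383 CPM), and their summed level lay between 14434 and 18210 CPM at day 5 and between 11545 and 15989 CPM at day 7. Acinar markers were low, with summed levels of 7.03 to 12.6 CPM at day 5 and 11.9 to 35.7 at day 7 over 9 matched genes, of which Dcpp1, Dcpp2 and Lpo were at 0 in each library. Most of these counts came from Aqp5 (56 counts in all at day 5 and 106 at day 7, at most 24.0 CPM) and Pip (3 and 46 counts, at most 10.3 CPM). Summed levels of the 10 macrophage markers were 8.03 to 10.7 and 9.30 to 13.9 CPM, with 7 of 10 at 0 in each library, among them Adgre1, Csf1r, Lyz2 and C1qa. Those of the 10 endothelial markers were 12.2 to 14.1 and 13.9 to 27.4 CPM, with Cdh5, Tek and Plvap at 0. The 10 fibroblast markers summed to 0.360 to 1.24 and 1.92 to 2.08 CPM, with Col1a2, Col3a1, Lum and Dpt at 0, and the 6 erythroid markers to 0 and 0 to 0.490 CPM. None of these sums reached an adjusted p under 0.05 between the days in a two-sided exact permutation test, which cannot go below p = 0.1 with 3 libraries a day.

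Of the prolyl hydroxylases, Egln3 (PHD3; ENSMUSG00000035105, chr12:54225767-54250673, minus strand in GRCm39) is the family member best known to be induced by HIF itself. Its level was 43.3, 63.3 and 81.8 CPM in mice 1, 2 and 3 at day 5 and 758, 528 and 327 CPM at day 7. The lowest day 7 library lay above the highest day 5 library, and the order of the mice was opposite on the 2 days. The fitted log2 fold change of day 7 over day 5 was 3.09 ± 0.29 (SE). In bulk organoids, a change in the number of cells that express a gene and a change in RNA per cell cannot be told apart.

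Egln1 (PHD2; ENSMUSG00000031987, chr8:125635308-125676865, minus strand) encodes the hydroxylase that sets HIF1A levels in most cells. It was at 41.2, 48.7 and 52.6 CPM at day 5 and at 184, 103 and 51.9 CPM at day 7. Mouse 3 stayed at its day 5 level (within-mouse log2 difference -0.02), so the days overlapped, whereas mice 1 and 2 differed by 2.14 and 1.06. The fitted log2 fold change was 1.25 ± 0.32, and it was 0.71 without the day 7 library of mouse 1 and 1.59 without that of mouse 3. Egln2, the third hydroxylase, was at 28.9, 48.2 and 34.6 CPM at day 5 and 30.7, 41.7 and 59.7 CPM at day 7, and did not pass the threshold (log2 fold change 0.24). The share of Egln3 in the summed CPM of Egln1, Egln2 and Egln3 was 38.2%, 39.5% and 48.4% at day 5. At day 7 it was 77.9%, 78.5% and 74.5%, similar in the 3 mice although their Egln3 levels spanned 327 to 758 CPM. The ratio of Egln3 to Egln1 counts within a library was 1.05 to 1.55 at day 5 and 4.11, 5.14 and 6.29 at day 7, highest in mouse 3.

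Passing the threshold means that the edgeR quasi-likelihood test across all 15792 genes gave an adjusted p below 0.05 and that the log2 fold change exceeded 0.6 in either direction. This held for 12.0% of all genes tested, 7.22% as higher at day 7 and 4.82% as lower. Of the 13 tested genes for HIF subunits and oxygen sensing other than Egln1 and Egln3, 1 passed the threshold, and the median log2 fold change of the list was 0.08, beside -0.01 over all genes tested. The gene that passed was Epas1, which encodes the HIF-2 alpha subunit. It was at 16.9, 15.6 and 21.3 CPM at day 5 and at 32.2, 40.6 and 35.7 CPM at day 7, with no overlap between the days (log2 fold change 1.01 ± 0.25, edgeR adjusted p = 0.0107). The call was lost in some fits that left a day with 2 libraries. Without the day 5 library of mouse 1 or 2, the adjusted p by edgeR was 0.0765 or 0.0897. It was 0.0591 without the day 7 library of mouse 2. The log2 fold change of Epas1 lay between 0.91 and 1.15 over the fits that left out 1 library. Hif1a was at 323, 394 and 320 CPM at day 5 and 591, 462 and 444 CPM at day 7, again without overlap, but did not pass the threshold (log2 fold change 0.53 ± 0.19, edgeR adjusted p = 0.0798). Without the day 7 library of mouse 3 it passed, at 0.61 and an adjusted p by edgeR of 0.0110. Arnt (-0.01), Vhl (0.02), the asparagine hydroxylase Hif1an (0.40), the VHL complex genes Elob (-0.18), Eloc (-0.53), Cul2 (-0.20) and Rbx1 (0.09), and the coactivators Ep300 (0.08) and Crebbp (-0.33) did not pass. Eloc passed without the day 7 library of mouse 1, at -0.85 and an adjusted p by edgeR of 0.0101. Hif3a was listed at 0 in each day 5 library and held at most 0.979 CPM at day 7, under the limit that a count of 0 allows.

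**Figure D1:**
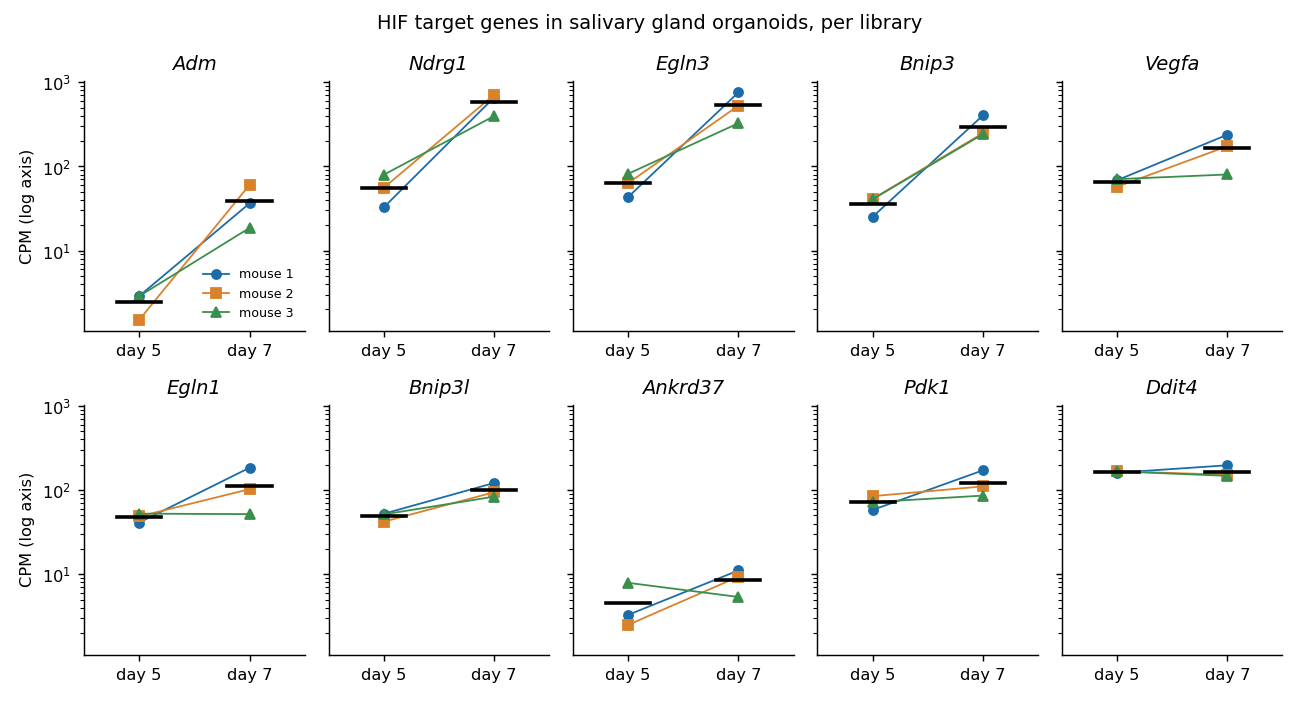
CPM (log axis) of the 10 HIF target genes at day 5 and day 7, with 1 panel per gene, 1 line per mouse joining its 2 libraries and black bars for the mean of 3 libraries. Adm, Ndrg1, Egln3 and Bnip3 differ most between the days, Ddit4 stays between 148 and 198 CPM, and in each panel the day 7 value of mouse 3 is the lowest of that day.

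Bnip3 and Bnip3l (NIX) encode related proteins of the outer mitochondrial membrane that bind LC3 and GABARAP proteins and mark mitochondria for removal by autophagy. Bnip3 (ENSMUSG00000078566, chr7:138490690-138511253, minus strand) was at 25.2, 41.2 and 40.7 CPM at day 5 and at 403, 248 and 242 CPM at day 7. The 3 day 7 libraries lay well above the 3 day 5 libraries, and mouse 1 had the lowest level at day 5 and the highest at day 7. The fitted log2 fold change was 3.06 ± 0.26. Bnip3l (ENSMUSG00000022051, chr14:67222678-67246356, minus strand) was at 52.4, 42.2 and 51.5 CPM at day 5 and 122, 94.4 and 83.7 CPM at day 7. It too did not overlap between the days, with a smaller log2 fold change of 1.03 ± 0.21. Counts of Bnip3 were 0.480 to 0.976 times those of Bnip3l within a library at day 5, and 3.32, 2.63 and 2.89 times at day 7. Bnip3 was thus the higher of the pair in each of the 3 mice at day 7. At day 5 the counts in mouse 2 were 82 for Bnip3 and 84 for Bnip3l, too close to give an order there.

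The median log2 fold change of 19 other genes for mitophagy receptors and autophagy partners was 0.51. Of these genes, 7 passed the threshold, all higher at day 7, beside 7.22% of all genes tested. They included some of the GABARAP and LC3 family, to which BNIP3 binds, but not Gabarapl2 (0.15), named after its values were seen. Gabarapl1 rose from 26.9 ± 3.57 to 79.5 ± 15.7 CPM (SD, n = 3; log2 fold change 1.56, edgeR adjusted p = 0.000192). Gabarap (1.21, edgeR adjusted p = 0.00143) and Map1lc3a (1.92, edgeR adjusted p = 0.00172) rose as well, the latter passing with the robust = FALSE setting of edgeR but not with robust = TRUE (adjusted p = 0.0690). The autophagy receptor Optn passed at 1.23 (edgeR adjusted p = 0.00652), though at 0.0518 without the day 5 library of mouse 2 and 0.0521 without that of mouse 3. The receptor Sqstm1 did not pass (0.51), nor did the inner-membrane receptor Phb2 (-0.63, edgeR adjusted p = 0.0638). With the mouse as a block Phb2 passed, lower at day 7 (-0.66, edgeR adjusted p = 0.0339), as it did with upper quartile scaling, with library totals only, with no filter and without the day 7 library of mouse 1 (-0.70, adjusted p = 0.0358). The list's count was 4, 3 and 3 without the day 5 library of mouse 1, 2 and 3. The share of counts from mitochondrially encoded protein genes was 2.60% to 2.72% at day 5. At day 7 it was 2.26% in mouse 1, and 0.926% and 0.924% in mice 2 and 3 (exact two-sided permutation p = 0.1, the smallest that 3 against 3 allows; 0.333 after Benjamini-Hochberg adjustment over 10 library measures). Its part in the levels of Bnip3 and Bnip3l was not tested.

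Pdk1 (ENSMUSG00000006494, chr2:71703488-71734202, plus strand) encodes a kinase that switches off pyruvate dehydrogenase and so holds pyruvate back from mitochondria. It was at 58.2, 84.9 and 72.1 CPM at day 5 and 172, 111 and 86.2 CPM at day 7. The days did not overlap, but the highest day 5 and the lowest day 7 value, 84.9 and 86.2 CPM, were next to each other. The fitted log2 fold change was 0.78 ± 0.24, and 0.46 without the day 7 library of mouse 1, in which the within-mouse difference was 1.55, against 0.38 and 0.26 in mice 2 and 3. None of the 9 other tested genes for pyruvate dehydrogenase kinases, phosphatases and subunits passed the threshold in edgeR, beside 12.0% of all genes tested. None passed in DESeq2 either, beside 1562 of 15792 genes. In edgeR 0 had an unadjusted p under 0.05, and the share over all genes was not counted. With so few genes, nothing is read from these counts. Their median log2 fold change was -0.20. The kinase Pdk3 (-0.12), the phosphatases Pdp1 (0.53) and Pdp2 (-0.47), and the complex genes Pdha1 (0.08), Pdhb (-0.34), Dlat (-0.27), Pdhx (-0.55) and Dld (-0.20) lay on both sides of 0. The kinase Pdk2, at 1.65, 1.51 and 2.16 CPM at day 5 and 4.22, 2.78 and 4.41 CPM at day 7 and named after its values were seen, had the largest log2 fold change of the list, 1.04 ± 0.52, and did not pass either. Pdk4, a kinase that fasting and glucocorticoids induce in other tissues, was below the filter on low counts.

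Of the secreted factors, Vegfa (ENSMUSG00000023951, chr17:46327919-46343309, minus strand) encodes the main growth factor for blood vessels. It was at 68.5, 57.2 and 70.6 CPM at day 5 and at 238, 174 and 80.3 CPM at day 7. The days did not overlap, yet mouse 3 differed by only 0.18 on the log2 scale within the mouse, against 1.79 and 1.59 in mice 1 and 2. The fitted log2 fold change was 1.33 ± 0.29, 1.65 without the day 7 library of mouse 3 and 0.96 without that of mouse 1. Adm (ENSMUSG00000030790, chr7:110226858-110229027, plus strand) encodes adrenomedullin, a peptide hormone that widens vessels. It had counts of 7, 3 and 8 at day 5 (2.89, 1.51 and 2.88 CPM), close to the limit that a count of 0 allows. At day 7 it was at 36.4, 60.4 and 18.6 CPM, each above every day 5 library, and its fitted log2 fold change of 3.94 ± 0.44 was the largest of the 10 genes. The size of that value depends on 18 counts in all at day 5.

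Of the other VEGF family and receptor genes, 2 of 8 tested passed the threshold, both higher at day 7, beside 7.22% of all genes tested. The median log2 fold change of the list was 0.06. Pgf, encoding placental growth factor, was at 1.65, 0 and 3.60 CPM at day 5 and at 39.1, 24.6 and 32.8 CPM at day 7 (log2 fold change 4.04 ± 0.46, edgeR adjusted p = 1.50e-05). Flt1, the receptor that binds both Vegfa and Pgf, rose from 2.04 ± 1.17 to 13.2 ± 3.01 CPM (SD, n = 3; 2.66 ± 0.43, edgeR adjusted p = 0.000453). Kdr, the main signalling receptor of VEGFA on endothelium, was below the filter on low counts. Vegfb (0.58) and the co-receptors Nrp1 (-0.47) and Nrp2 (-0.84, edgeR adjusted p = 0.0604) did not pass. With the mouse as a block Nrp2 passed, lower at day 7, at -0.92 and an edgeR adjusted p of 0.00204, as it did with library totals only and with no filter. Without the day 7 library of mouse 1, Nrp2 and Nrp1 both passed by edgeR, at -1.33 (adjusted p = 0.000520) and -0.62 (adjusted p = 0.0493). Of 3 tested genes listed with the adrenomedullin receptors, Ramp1, a partner of the receptor Calcrl, passed (log2 fold change 2.54, edgeR adjusted p = 0.00209). Ramp1 was at 0.825, 1.51 and 2.16 CPM at day 5 and 7.67, 12.8 and 6.36 CPM at day 7. Calcrl and Ramp3 (3.33), both named after their values were seen, did not pass. Ramp3 passed with no filter, with robust = TRUE and without the day 7 library of mouse 1. Ramp2 was below the filter on low counts. A rise of Ramp1 does not by itself show a rise of a receptor for Adm. The summed endothelial markers given above, at 12.2 to 14.1 CPM at day 5 and 13.9 to 27.4 CPM at day 7 (exact two-sided permutation p = 0.2, 0.4 after Benjamini-Hochberg adjustment), overlapped between the days, and their part in these differences was not tested.

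Ddit4 (REDD1; ENSMUSG00000020108, chr10:59785491-59788492, minus strand) restrains mTOR complex 1 and answers to hypoxia, energy stress and glucocorticoids. It was at 161, 168 and 167 CPM at day 5 and at 198, 152 and 148 CPM at day 7. The day 7 values lay on both sides of the day 5 values, and the fitted log2 fold change was 0.01 ± 0.19. Its sign was negative with upper quartile scaling (-0.03), with library totals only (-0.09), with the mouse as a block (-0.01) and without the day 7 library of mouse 1 (-0.14). At day 5 Ddit4 was the highest of the 10 genes in each library and varied least between mice (SD of log2 CPM 0.03).

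The 12 genes that act with Ddit4 in the control of mTOR had a list median of 0.26. Of these, 4 passed the threshold, all higher at day 7, beside 7.22% of all genes tested. The sestrins, stress proteins that lower mTOR activity, made up 3 of them. Sesn2 rose from 22.8 ± 5.39 to 71.4 ± 18.5 CPM (SD, n = 3; log2 fold change 1.64, edgeR adjusted p = 0.000357). Sesn3 passed at 0.90 (edgeR adjusted p = 0.00612), but at 0.0686 without the day 5 library of mouse 2. Sesn1 (1.16, edgeR adjusted p = 0.0460) lost its call without any of the 3 day 5 libraries or the day 7 library of mouse 2 or 3, with an adjusted p by edgeR of 0.0598 to 0.238, and also with DESeq2, filterByExpr, thinning, upper quartile scaling or library totals only. Txnip, an inhibitor of thioredoxin that stabilises the Ddit4 protein, passed at 1.35 (edgeR adjusted p = 0.0214) and lost its call without the day 5 library of mouse 2 (0.152) or 3 (0.117) or the day 7 library of mouse 2 (0.201), and also with filterByExpr, thinning or robust = TRUE. Rheb (0.37) and the paralogue Ddit4l (-0.37) did not pass.

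Since dexamethasone was in the medium on both days and Ddit4 is a known glucocorticoid target, a list of 10 other glucocorticoid targets was set beside it. Of these, 5 passed the threshold, all higher at day 7, beside 7.22% of all genes tested, and the list median was 1.13. Errfi1 (2.28, edgeR adjusted p = 0.000271), Glul (1.47, 0.000410), Cebpd (1.79, 0.00242) and Tsc22d3 (1.17, 0.00305) had the smallest p-values. Sgk1 (-0.15) and Fkbp5 (0.31) did not pass. Sgk1 passed as lower without the day 7 library of mouse 1 (-0.72, edgeR adjusted p = 0.0140), and Fkbp5 as higher without that of mouse 3 (0.65, edgeR adjusted p = 0.0432).

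Ndrg1 (ENSMUSG00000005125, chr15:66801166-66841835, minus strand) encodes a cytoplasmic stress-response protein linked to differentiation, and its RNA is a widely used readout of hypoxia. It was at 32.6, 55.7 and 79.6 CPM at day 5 and at 658, 707 and 396 CPM at day 7. The days were far apart, with the lowest day 7 library several times above the highest day 5 library, and the fitted log2 fold change was 3.39 ± 0.29. In the NDRG family, Ndrg2 also passed the threshold, with 19.0, 15.6 and 18.7 CPM at day 5 and 56.0, 63.2 and 72.0 CPM at day 7 (log2 fold change 1.83 ± 0.23, edgeR adjusted p = 3.63e-05), and Ndrg3 (0.51) did not. The mice were in another order in Ndrg2, which at day 7 was lowest in mouse 1 and highest in mouse 3.

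Ankrd37 (ENSMUSG00000050914, chr8:46449939-46458744, minus strand), a small protein with ankyrin repeats, was at 3.30, 2.51 and 7.93 CPM at day 5 and 11.1, 9.37 and 5.38 CPM at day 7. The values rest on 5 to 29 counts per library, the days overlapped through mouse 3, and the fitted log2 fold change was 0.88 ± 0.44, or 1.56 without the day 5 library of mouse 3. Of the last 500 bases of its transcript, 225 matched Ufsp2 on the opposite strand at 95% identity or more. Whether counting used strand is not given in the sources used here, so reads of Ankrd37 and Ufsp2 may not be told apart. Shorter matches were found for Ndrg1 (90 bases, Gm17035) and Adm (52 bases, 2810403D21Rik). The other 7 genes had none, and none of the 10 shared an exon with a gene on its own strand. Exons of genes on the opposite strand overlapped those of Bnip3, Ndrg1, Egln1, Ankrd37, Vegfa and Adm. Reads in these overlaps may also not be told apart if the counting ignored strand.

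Across the 10 genes, the median log2 fold change was 1.29, beside -0.01 over all genes tested. Past the threshold were 8 of 10, all higher at day 7, where 12.0% of all genes tested passed, 7.22% as higher and 4.82% as lower. The 3 values of day 7 all lay above those of day 5 in 7 of 10, against 15.4% of all genes (30.9% with either direction). As the genes were chosen with this contrast in view, nothing is read from these shares. The genes just inside and outside the threshold were Pdk1 (0.78) and Ankrd37 (0.88 ± 0.44). Over 16 settings, the reported one included, Pdk1 was past the threshold in 6, Egln1 in 10 and Vegfa in 15. Pdk1 and Egln1 were not past it without any 1 of the libraries other than that of mouse 3 at day 7. Pdk1 was also not past it with DESeq2, upper quartile scaling, library totals only, filterByExpr or thinning, Egln1 with robust = TRUE, and Vegfa without the day 5 library of mouse 2. By fitted log2 fold change the genes ranked from 174 (Adm), 327 (Ndrg1), 475 (Egln3) and 479 (Bnip3) to 2841 (Pdk1) and 7778 (Ddit4) among 15792 genes. Adm, Ndrg1, Egln3 and Bnip3 thus lay at log2 fold changes of 3.06 to 3.94, and the next gene, Vegfa, at 1.33.

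**Figure D2:**
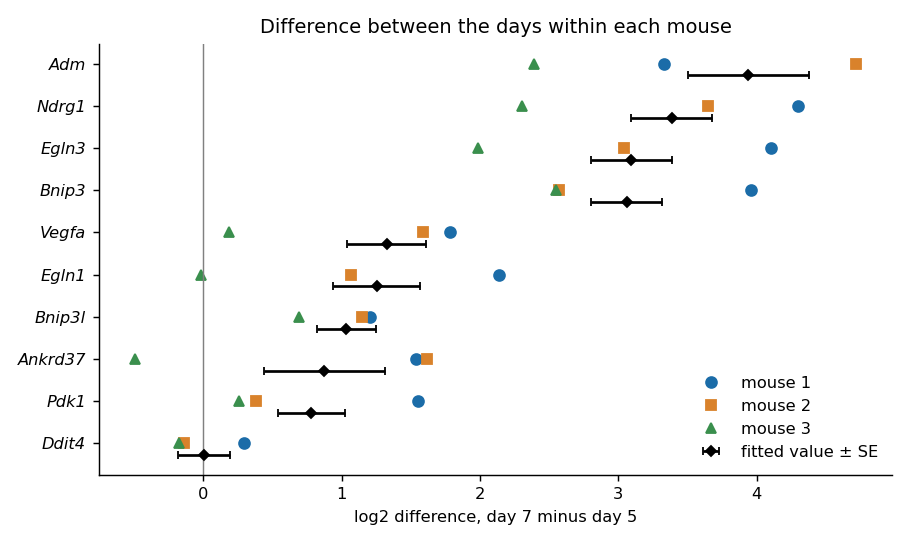
Log2 difference of day 7 minus day 5 within each of the 3 mice (coloured symbols, log2 CPM with a prior count of 2) and the fitted log2 fold change ± SE (black diamonds) for the 10 genes. The difference is smallest in mouse 3 for each of the 10 genes, and it is below 0 in mouse 3 for Egln1, Ankrd37 and Ddit4. The matching share over all genes was not counted, so nothing is read from the count of 10.

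The 3 mice differed in how far the genes moved. The median within-mouse log2 difference of the 10 genes was 1.96, 1.60 and 0.47 in mice 1, 2 and 3, whereas the median over 8172 genes averaging 10 CPM or more was 0.00, 0.03 and -0.00. Ndrg1 differed by 4.30, 3.65 and 2.30, Egln3 by 4.10, 3.04 and 1.99, and Bnip3 by 3.96, 2.57 and 2.55. Mouse 3 had the smallest difference in 10 of 10 genes, and mouse 1 the largest in 8 of 10. The matching shares over all genes were not counted, so nothing is read from these counts. In mouse 3, Bnip3, Ndrg1, Egln3 and Adm still lay above their day 5 levels, while Egln1 (-0.02), Ankrd37 (-0.50) and Ddit4 (-0.18) did not.

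The genes were chosen with the difference between the days in view, which is built in part from the day 7 values used here. Within day 7, 10 of 10 genes were lowest in mouse 3, against 39.1% of the 8172 genes. Of the 10, 8 were highest in mouse 1, against 30.2% of those genes. Ndrg1 and Adm were highest in mouse 2. Among the 815 other genes past the threshold and higher at day 7, 34.8% were lowest in mouse 3 and 16.8% highest in mouse 1, so genes that rose did not in general follow that order. The counts of 10 and 8 were the same with library totals only and with the size factors of DESeq2. The 10 genes were measured in the same 3 libraries and are not independent of each other, so this is a description of 3 mice. At day 5 the order was different, with 6 of 10 genes lowest in mouse 1, 5 highest in mouse 3 and 0 lowest in mouse 3. The shares were 36.4%, 31.5% and 28.2% over the 8172 genes, and 42.2%, 45.6% and 15.7% over the 815 other genes higher at day 7, so that this order was shared in part by genes that rose.

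Other gene lists differed in their order of the mice. Of 27 other HIF targets outside glycolysis that averaged 10 CPM or more, 19 (70.4%) were lowest in mouse 3 and 17 (63.0%) highest in mouse 1. Of 16 glycolysis genes, 9 (56.2%) were highest in mouse 1, but 6 (37.5%) were lowest in mouse 3. Of 9 glucocorticoid targets, 8 were lowest in mouse 3 and 7 highest in mouse 2. Of 18 genes for mitophagy and autophagy, 4 were lowest in mouse 3 and 3 highest in mouse 1. The day 7 library of mouse 1 was also the one with the highest share of counts from mitochondrially encoded protein genes (2.26%), and that of mouse 3 had the smallest total count (2154261). The part of either in the order of the mice was not tested.

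**Figure D3:**
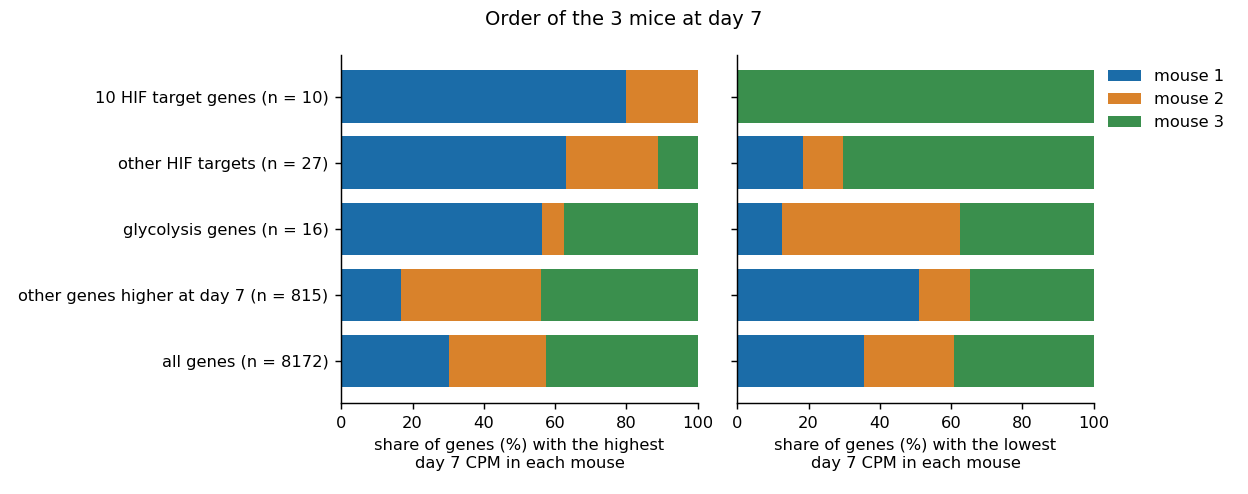
Share of genes (%) whose day 7 CPM is highest (left) or lowest (right) in mouse 1, 2 or 3, for the 10 HIF target genes, other HIF targets, glycolysis genes, other genes higher at day 7 and all genes that averaged 10 CPM or more. The bar for lowest in mouse 3 covers 100% of the 10 genes, 70.4% of other HIF targets, 37.5% of glycolysis genes and 39.1% of all genes.

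The spread between mice at day 7 was widest in Egln1 (highest level 3.56 times the lowest), Adm (3.25 times) and Vegfa (2.97 times), and narrowest in Ddit4 (1.34 times). The SD of log2 CPM over the 3 mice had a median of 0.33 at day 5 and 0.50 at day 7 over the 10 genes, beside 0.16 and 0.33 over the 8172 genes. It was larger at day 7 than at day 5 in 8 of 10 genes, and in 80.4% of all genes, so the wider spread at day 7 was shared by most genes. At day 5 the spread was largest in Ankrd37 (0.73), which had few counts, and Ndrg1 (0.64).

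The order of the levels among the 10 genes also changed between the days. Levels of 3′ counts are compared here between genes without division by length. At day 5, Ddit4 led in each library at ranks 1007, 927 and 933 of 15792 genes, Adm was lowest and Ankrd37 next, and the 7 other genes lay between 25.2 and 84.9 CPM in an order that varied with the mouse. At day 7, Egln3 and Ndrg1 led, at ranks 119, 198 and 405 and ranks 137, 135 and 303, and Bnip3 followed at ranks 297, 597 and 601. Egln3 was above Ndrg1 in mouse 1 and below it in mice 2 and 3, so their order was not set beyond the spread between mice. Vegfa, Ddit4, Egln1, Pdk1 and Bnip3l lay between 51.9 and 238 CPM at day 7 with overlapping ranges, and Adm and Ankrd37 remained the lowest pair. Summed over the 10 genes, day 5 libraries held 488, 565 and 627 CPM and day 7 libraries 2780, 2187 and 1438 CPM. Ndrg1, Egln3 and Bnip3 made up 20.7%, 28.4% and 32.2% of that sum at day 5 and 65.4%, 67.8% and 67.1% at day 7. This share was nearly equal in the 3 mice at day 7, although the sum itself was lowest in mouse 3.

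To place the 10 genes among others of the pathway, 38 other HIF targets outside glycolysis were listed, of which 35 were tested. The list was drawn up with earlier results of these data known. Of the tested genes, 17 were past the threshold and higher at day 7 and 1 was lower, beside 7.22% and 4.82% of all genes tested. The median log2 fold change was 1.25, or 1.01 when the 3 genes at 0 throughout day 5 were set to their bound. The count past the threshold was 9 to 25 over fits that left out 1 library. It was 10, 9 and 10 without the day 5 library of mouse 1, 2 and 3. The nuclear receptor Rora was at 8.66, 10.5 and 7.57 CPM at day 5 and at 80.9, 75.3 and 39.7 CPM at day 7 (log2 fold change 2.89 ± 0.30, edgeR adjusted p = 5.74e-06). The disulphide-forming oxidase Ero1a was at 42.5, 48.2 and 62.3 CPM and then at 334, 223 and 186 CPM (2.28 ± 0.24, edgeR adjusted p = 6.70e-06). For both, the days did not overlap and mouse 3 was lowest at day 7. The collagen prolyl hydroxylases P4ha1 (1.78 ± 0.22, edgeR adjusted p = 2.75e-05) and P4ha2 (2.01 ± 0.27, 6.97e-05) rose from 37.1 to 128 and from 20.1 to 81.1 mean CPM. Fam162a (0.38) and Mif (0.29) were the most abundant of those that did not pass. Fam162a was at 632, 388 and 207 CPM at day 7, and it passed without the day 7 library of mouse 3 (0.70, edgeR adjusted p = 0.0167). The gene that fell was the transferrin receptor Tfrc, named after its values were seen, at -0.72 (edgeR adjusted p = 0.0338). It lost its call without any of the day 5 libraries and without the day 7 library of mouse 2, at adjusted p-values by edgeR of 0.0987 to 0.153, and after thinning to the smallest library (0.0641).

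For comparison, 7 of 18 tested glycolysis genes passed the threshold, all higher at day 7, beside 7.22% of all genes tested. The list median was 0.62 (0.52 with a gene at 0 throughout day 5 set to its bound). Slc16a3 (2.55), Pgk1 (2.64), Aldoc (1.38) and Pfkp (1.33) passed, while the abundant Ldha (0.24) and Pkm (0.22) did not. Genes of one pathway thus differed within each list, as Ddit4 and Ankrd37 did from Ndrg1 and Bnip3. The lists were not compared by a test.

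**Figure D4:**
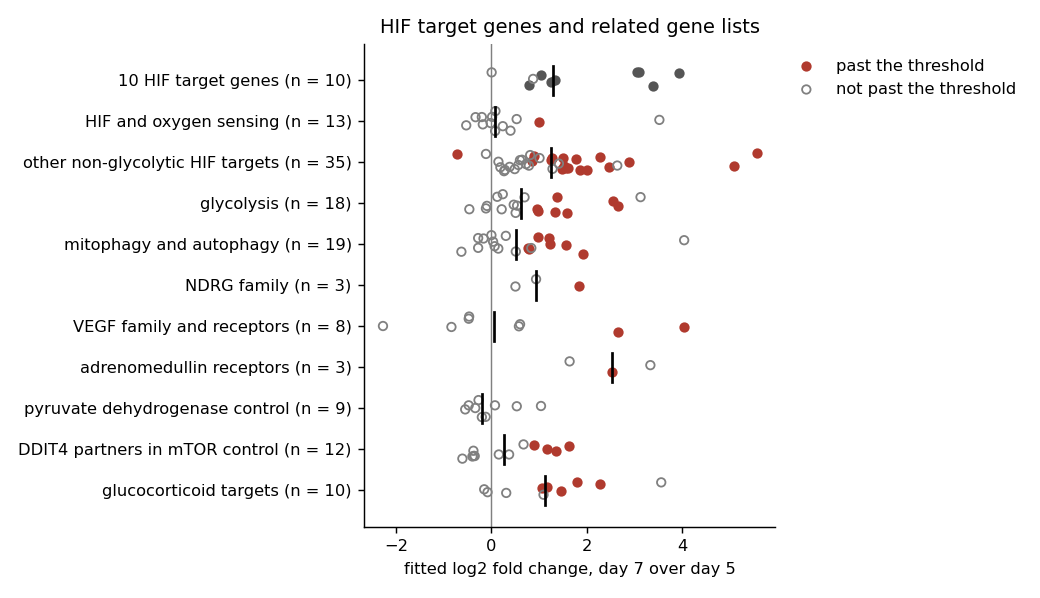
Fitted log2 fold change of day 7 over day 5 for each tested gene (points) of the 10 HIF target genes and 10 related lists, filled where past the threshold, with black bars for medians. The median is 1.29 for the 10 genes, 1.25 for other HIF targets, 0.62 for glycolysis, 0.08 for HIF and oxygen sensing and -0.20 for pyruvate dehydrogenase control.

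Over the 6 libraries, 9 of the 10 genes correlated with the mean standardised profile of the 10, of which each is itself a part, at a Pearson r of 0.85 to 0.96, and Ddit4 at 0.41. Among 9348 other named protein-coding genes averaging 5 CPM or more, the profile was most alike in Fstl3 (r = 0.999), Mtmr14 (0.995), Thap2 (0.993), Appl2 (0.989) and Dipk2a (0.987). Their fitted log2 fold changes of day 7 over day 5 ranged from 0.23 for Thap2 to 1.11 for Dipk2a. With 6 libraries that fall into 2 days, these values describe likeness over the same libraries and carry no test. Of the proliferation genes, Mki67 (-1.41, edgeR adjusted p = 0.000459) and Top2a (-1.04, edgeR adjusted p = 0.00184) were lower at day 7.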

How the data were processed

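QuantSeq 3′ libraries of mSGOs from 3 mice at day 5 and day 7 were analysed. The authors deposited whole-number read counts for each library and Ensembl gene ID, without normalisation, made on GRCm39. The aligner and the strand setting are not given in the sources used here. Names came from GENCODE vM39 (43465 of 47643 IDs matched). Reads in no gene (9.12% to 14.4%) were left out of library sizes. Genes with a count of at least 1 in at least 2 libraries were tested in edgeR 4.0.16 (R 4.3.3) by glmQLFit and glmQLFTest, two-sided, with TMM and day as the only term, and Benjamini-Hochberg adjustment, after the settings named in the study. Self-tests ran on simulated data. Log2 CPM used a prior count of 2. Intervals of counting error are not given, and reads carry no molecular identifiers. Matches at 3′ ends were searched with BLAST 2.17.0.

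The 10 genes and the lists were chosen with earlier results of these data known. Named besides the 10 were the oxygen-sensing genes, small-family genes averaging 5 CPM or more, up to 4 genes past the threshold by p and 2 abundant others per list, the 5 most alike in profile, Mki67 and Top2a. The mouse was not a term of the reported fit. Same-numbered libraries came from 1 mouse per their titles, and their deviations from the day means correlated at 0.14, -0.10 and 0.16 over 8172 genes for mice 1, 2 and 3. No 2 libraries of a day agreed within sampling noise (chi-square per degree of freedom at least 2.09). Alternatives were other scalings (size factors of DESeq2, upper quartile, library totals), no filter or filterByExpr, DESeq2 1.42.0, the mouse as a block, thinning to the smallest library, robust = TRUE and leaving out each library. The other scalings of the order of the mice were added after the data were seen.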

Additional observations from a re-analysis of the deposited data

How the results depend on the processing

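With 3 libraries per day, counts of genes past the threshold depended on single libraries. Over fits that left out 1 library, in which a day is left with 2, the count over all genes was 797 to 2576 (1901 with all 6). It was 892, 797 and 890 without the day 5 library of mouse 1, 2 and 3 and 1045 without the day 7 library of mouse 2. The count among the 10 HIF target genes was 5 to 8, lowest without the day 5 library of mouse 2. Counts were 0 to 2 for HIF subunits and oxygen sensing (0 without the day 5 library of mouse 1 or 2 or the day 7 library of mouse 2, 2 without the day 7 library of mouse 1 or 3), 9 to 25 for other HIF targets and 3 to 8 for mitophagy and autophagy. They were 1 to 4 for the partners of Ddit4 (1 and 2 without the day 5 library of mouse 2 and 3, 2 without the day 7 library of mouse 2), 4 to 8 for glucocorticoid targets (8 without the day 7 library of mouse 3), and 2 to 4 for the VEGF family and 1 to 2 for adrenomedullin receptors (4 and 2 without the day 7 library of mouse 1). The partners of Ddit4 numbered 2 with filterByExpr and 2 after thinning, and the adrenomedullin receptors 2 with no filter and 2 with robust = TRUE. With library totals only, 950 genes were higher and 1008 lower, against 1140 and 761, and the median log2 fold change of all genes moved from -0.01 to -0.10. For the 10 genes, the median log2 fold change was 0.92 to 1.62 over leave-one-out fits and 1.15 to 1.29 over the other alternatives. With the mouse as a block, 2340 genes passed the threshold. Among 69 named genes, the block changed the calls of Phb2 and Nrp2 and no other. Adm and Ankrd37 rest on few counts, which limits their fold changes.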
